A study of Rattus norvegicus with 30 samples.

Results

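The genes for 6 subunits of glutamate receptors (6 of the 32552 genes counted) were followed in brain tissue from 30 adult male Sprague Dawley wild type rats, with 1 RNA sequencing library per rat. Subunits of the NMDA receptor are encoded by *Grin1*, *Grin2a* and *Grin2b*. A pair, *Gria1* and *Gria3*, encode subunits of the AMPA receptor, and *Grm5* encodes the metabotropic receptor mGluR5. The rule that picked the genes uses their names and no measured value, though it was drawn up with earlier results of these data known. Each of the 6 identifiers lay on the chromosome that its gene name calls for. The tables carry Ensembl identifiers without gene names, so that the names used here come with the choice of the genes.

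All rats went through 21 days of self-administration. The 7 control rats (CT) pressed for saline and were never shocked. Other rats pressed for methamphetamine (METH) and then had 8 days on which lever presses could bring a foot-shock, under which 7 shock-resistant rats (SR) kept pressing and 6 shock-sensitive rats (SS) cut back. Yoked rats took saline and were shocked along with an SR rat (YSR, n = 5) or an SS rat (YSS, n = 5). SR and SS rats were thus set apart by their behavior and were not assigned at random. The sample names also carry a code, XII or XIII, called the cohort here; what it marks is not described. Cohort XII held 11 rats (1 CT, 4 SR, 2 SS, 3 YSR and 1 YSS) and cohort XIII held 19 (6 CT, 3 SR, 4 SS, 2 YSR and 4 YSS). In the deposited records the tissue is given as dorsal striatum in one place and as hippocampus in another, the study's methods name the whole hippocampus, and the sources differ on how soon after the last session the tissue was taken. Marker genes of either tissue could not be looked up without gene names and were not analysed here.

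Glutamate is the main excitatory transmitter of the brain. AMPA receptors are ion channels of 4 subunits that carry most of the fast current at excitatory synapses. NMDA receptors admit calcium when glutamate is bound and the membrane is depolarized, and they start many forms of synaptic plasticity. GluN1, the product of *Grin1*, is needed in every NMDA receptor, while GluN2A and GluN2B, the products of *Grin2a* and *Grin2b*, set how long the channel stays open and which proteins it binds. GluN2B prevails early in life and GluN2A gains ground as the forebrain matures. GluA1, from *Gria1*, is abundant in hippocampal AMPA receptors and is moved to synapses during long-term potentiation, and GluA3, from *Gria3*, is found mostly in receptors that also hold GluA2. mGluR5 signals through Gq proteins and is physically linked to NMDA receptors by scaffold proteins. The proportions among these transcripts, in the 5 groups and both cohorts, were the question put to the data.

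The gene models in the tables differ widely in size. Positions below are those of the deposited tables, whose genome build is not given in the sources used here. *Grin1* (ENSRNOG00000011726) lies on the minus strand of chromosome 3 from 2506896 to 2534663 and spans 27768 bp, by far the shortest of the 6. *Grin2a* (ENSRNOG00000033942) lies on the plus strand of chromosome 10 from 5930298 to 6119990, and *Gria1* (ENSRNOG00000045816) on the plus strand of the same chromosome from 42614713 to 42760200. *Grin2b* (ENSRNOG00000008766) spans 439487 bp of the minus strand of chromosome 4, from 169560387 to 169999873. *Gria3* (ENSRNOG00000007682) lies on the plus strand of chromosome X from 127562660 to 127829753. *Grm5* (ENSRNOG00000016429) lies on the plus strand of chromosome 1 from 151439409 to 151783392. Their exons, merged, add up to between 2976 bp (*Gria1*) and 5261 bp (*Grin2b*). Exons of other genes on the opposite strand overlap 1063 exonic bp of *Grin1*. Its count may be off there, in either direction, if the counting did not use the strand, which is not stated. The overlap on the opposite strand is 86 bp for *Grin2b*. *Gria3* shares 20 exonic bp with a gene on its own strand, and there is no overlap for *Grin2a*, *Gria1* and *Grm5*.

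All 6 genes were well counted. Total counts lay between 14584340 and 19997820 per library (median 17396700), and the 6 genes together took 0.145 to 0.190% of them. Single genes had between 853 and 12426 counts in a library. All 6 passed the filter on low counts, with 15797 genes in all. Values are CPM, each count divided by the size of its library in units of 1e6 counts after TMM normalization, and levels of different genes are compared only as CPM per kb of exon.

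Per kb of exon, the transcripts stood in the order *Gria1*, *Grin1*, *Gria3*, *Grm5*, *Grin2a*, *Grin2b* in 26 of 30 libraries. In the other 4, *Grin2a* was above *Grm5*, and these neighbours are not separated by their spread: *Grm5* had a level of 28.0 ± 5.24 CPM per kb (SD, n = 30) and *Grin2a* one of 24.4 ± 5.27. The levels were 152 ± 12.4 CPM per kb for *Gria1*, 120 ± 5.22 for *Grin1*, 55.1 ± 4.47 for *Gria3* and 15.4 ± 2.24 for *Grin2b*. As a share of the 6, *Gria1* took 38.5% and *Grin1* 30.5% on average, *Gria3* 13.9%, *Grm5* 7.03%, *Grin2a* 6.11% and *Grin2b* 3.90%. These shares rest on the exon lengths of the tables and would move with another annotation.

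**Figure D1:**
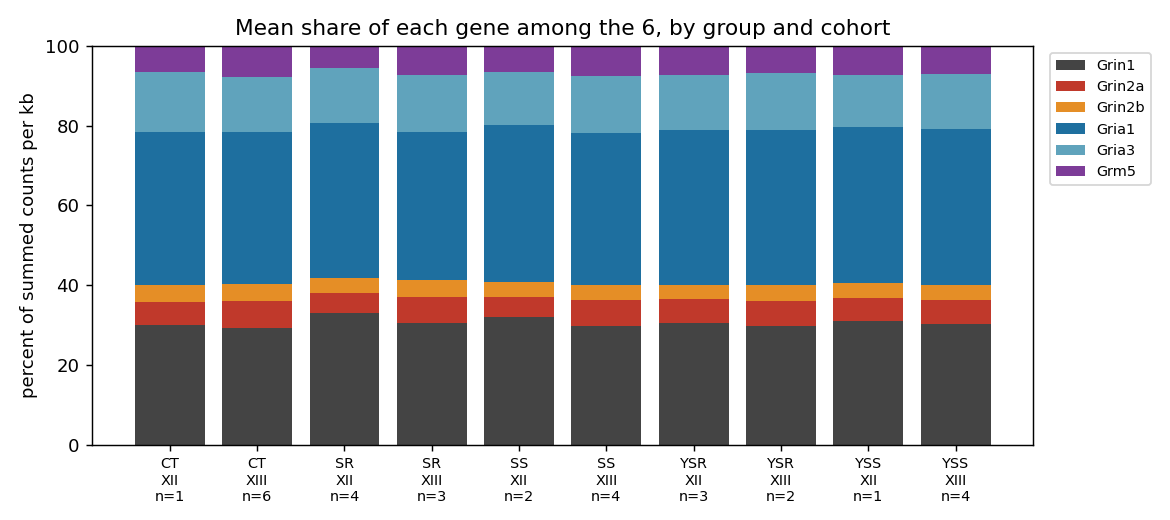
Mean share of each gene among the 6, in percent of their summed counts per kb of exon, in the 5 groups split by cohort XII and XIII (n below each bar). *Gria1* and *Grin1* fill more than any other pair of genes in each bar, and *Grin1* takes its highest mean share in the SR rats of cohort XII.

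The genes differed in how much they varied among rats. *Grin1*, the obligatory NMDA subunit, was the steadiest, with a coefficient of variation of 4.33% and a 1.19-fold range from its lowest to its highest library. The AMPA subunit genes varied more, by 8.14% (*Gria1*) and 8.11% (*Gria3*). *Grin2b* varied by 14.5%, *Grm5* by 18.7% and *Grin2a* by 21.6%, and the highest library had 1.83 times, 2.64 times and 2.29 times the level of the lowest. Of these, *Grin2a* and *Grin2b* enter the ratios described below, and *Grm5* enters none of them.

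**Figure D2:**
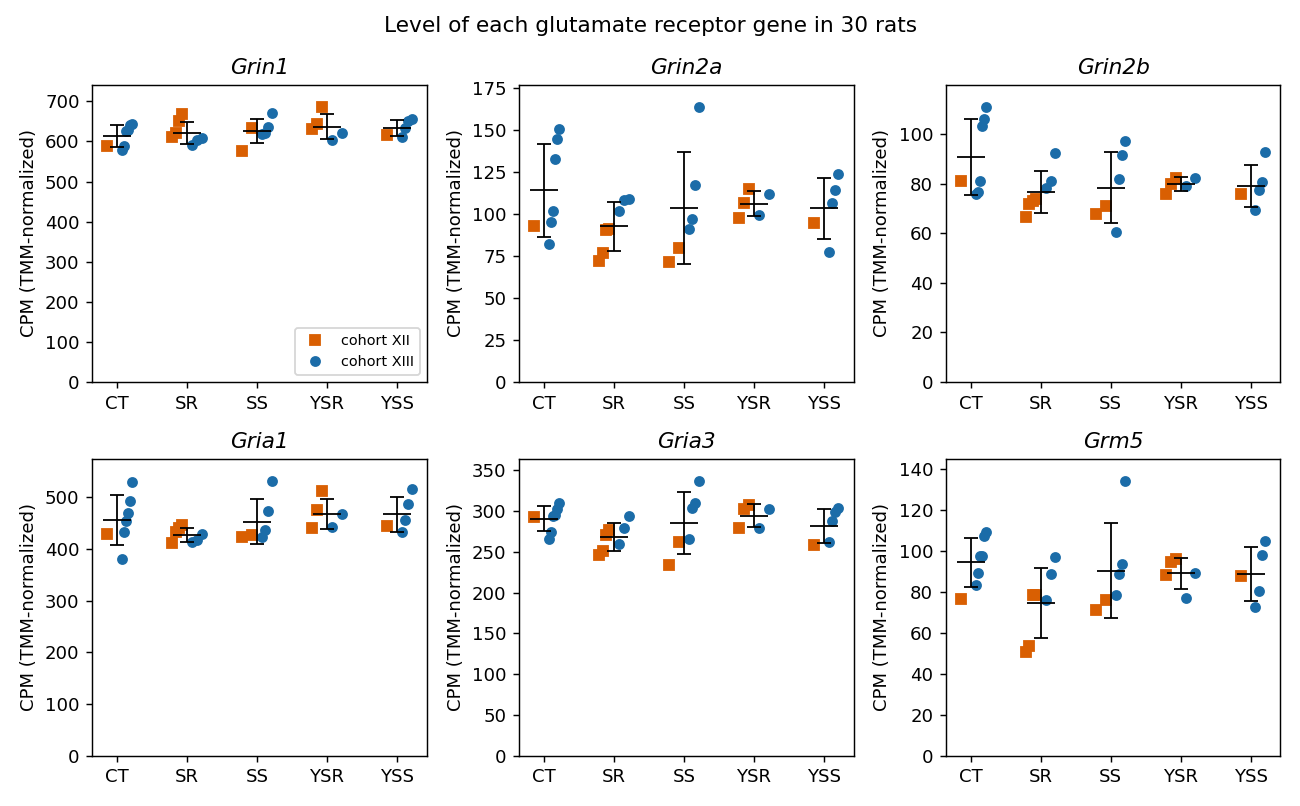
Level of each gene in CPM (TMM-normalized) in every rat, by group, with squares for cohort XII and circles for cohort XIII. Lines give the mean and SD of each group. *Grin1* is nearly level across groups, whereas 3 CT rats stand above the others in *Grin2b* and 2 SR rats below all others in *Grm5*.

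Among the NMDA receptor genes, *Grin1* showed the smallest differences between groups. Its level was 614 ± 27.5 CPM in CT, 621 ± 27.3 in SR, 626 ± 30.4 in SS, 637 ± 31.5 in YSR and 633 ± 20.3 in YSS rats. The groups overlapped in every comparison, and the log2 fold changes over the 8 comparisons lay between -0.03 and 0.05, with a smallest unadjusted p of 0.197 in edgeR's quasi-likelihood test.

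*Grin2b* was highest in CT rats, and this rested on 3 of them. The CT rats ranged from 75.9 to 111 CPM with a median of 81.1, the SR rats from 66.6 to 92.5 with a median of 73.7, and the SS rats from 60.5 to 97.3 with a median of 76.5. The YSR rats had 75.8, 79.3, 79.7, 82.2 and 82.3 CPM and the YSS rats 69.2, 75.7, 77.5, 80.6 and 92.6. In CT, 3 rats (XIII-R06, XIII-R11 and XIII-R12, with 103, 111 and 106 CPM) were above the highest rat of each other group, while the other 4 CT rats lay among the rest. The mean was 90.7 ± 15.3 CPM in CT rats against 76.8 ± 8.39 in SR rats, 78.4 ± 14.4 in SS rats, 79.9 ± 2.65 in YSR rats and 79.1 ± 8.61 in YSS rats. In edgeR the log2 fold change against CT was -0.24 in SR rats (standard error 0.10, unadjusted p = 0.0180, Benjamini-Hochberg adjusted p = 0.401) and -0.21 in SS rats (0.10, unadjusted p = 0.0432, adjusted p = 0.990). It was -0.18 in YSR rats (0.11, unadjusted p = 0.0921) and -0.20 in YSS rats (0.11, unadjusted p = 0.0710). All of these comparisons share the same 7 CT rats, so the likeness of the 4 values is no independent repeat. With the cohort as a covariate, the values were -0.17 in SR rats (unadjusted p = 0.0777) and -0.18 in SS rats (unadjusted p = 0.0611), -0.10 in YSR rats (unadjusted p = 0.319) and -0.19 in YSS rats (unadjusted p = 0.0663). Without CT rat XIII-R11 or XIII-R12 the unadjusted p of the SR comparison exceeded 0.05 (up to 0.0624), and without any 1 of 6 rats (CT XIII-R06, XIII-R11 and XIII-R12, SS XIII-R03, XII-L03 and XII-R03) that of the SS comparison did (up to 0.150). By an exact two-sided permutation test of the CPM of all rats of the groups compared, neither comparison passed 0.05. The p was 0.0624 for SR and 0.166 for SS rats against CT.

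*Grin2a* behaved much like *Grin2b* but with a wider spread. It ranged from 81.8 to 150 CPM in CT rats (median 102), from 72.0 to 109 in SR rats (median 91.1) and from 71.4 to 164 in SS rats (median 94.1). The YSR rats had 97.8, 99.5, 107, 112 and 114 CPM, and the YSS rats 77.2, 94.6, 106, 114 and 124. The same 3 CT rats were the highest of their group, at 133, 150 and 144 CPM, and SS rat XIII-L05 was the highest of all 30. The groups overlapped in each comparison. The log2 fold change of SR against CT rats was -0.30 (standard error 0.15, unadjusted p = 0.0531, adjusted p = 0.485 in edgeR), and those of SS, YSR and YSS rats against CT were within 1 standard error of 0, at -0.14, -0.11 and -0.14. With the cohort as a covariate the values of *Grin2a* against CT were -0.17 in SR (unadjusted p = 0.227), -0.10 in SS, 0.05 in YSR and -0.12 in YSS rats.

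Of the AMPA receptor genes, *Gria1* lay in a narrow range in SR rats, from 413 to 446 CPM (median 428). CT rats ranged from 380 to 531 CPM (median 455) and SS rats from 424 to 533 (median 432). The YSR rats had 442, 444, 468, 475 and 513 CPM, and the YSS rats 433, 446, 456, 487 and 517. Of the 7 SR rats, 6 were below the lowest YSR rat, and the remaining one was below 3 of the 5. The log2 fold change of SR against YSR rats was -0.13 (standard error 0.06, unadjusted p = 0.0470, adjusted p = 0.606), from 427 ± 13.1 to 468 ± 29.0 CPM in their means. An exact two-sided permutation test of these CPM gave p = 0.00505, the smallest of 48 such tests over the 6 genes and 8 comparisons, with an adjusted p of 0.242. Of the 48, 4 had an unadjusted permutation p under 0.05. The others were *Gria3* in SR vs. YSR (0.0215) and in SR vs. CT (0.0291), and *Grm5* in SR vs. CT (0.0291), each with an adjusted p of 0.350.

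*Gria3* showed the same order of SR and YSR rats. SR rats ranged from 247 to 294 CPM (median 271), and the YSR rats had 279, 280, 303, 303 and 308. Of the 7 SR rats, 5 were below the lowest YSR rat. The log2 fold change was -0.13 (standard error 0.06, unadjusted p = 0.0484, adjusted p = 0.609 in edgeR). The CT rats (266 to 309 CPM, median 294), the SS rats (234 to 337, median 285) and the YSS rats (258, 263, 287, 299 and 304) all overlapped with the SR rats, and the log2 fold change of SR against CT was -0.11 (unadjusted p = 0.0636).

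The unadjusted edgeR p-values of both AMPA genes in SR vs. YSR lay close to 0.05 and crossed it when single libraries were left out. Leaving out 1 library at a time took them over 0.05 in 17 of 30 fits for *Gria1* (up to 0.174) and in 19 of 30 for *Gria3* (up to 0.115), at a log2 fold change between -0.15 and -0.09 and between -0.16 and -0.11. For both genes the libraries left out in these fits included CT, SS and YSS rats. Those rats are not in the comparison and enter it only through the shared fit.

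*Grm5* had the widest range of the 6. The SR rats ranged from 50.9 to 97.3 CPM (median 78.3), the CT rats from 76.8 to 109 (median 97.3) and the SS rats from 71.1 to 134 (median 83.8). The YSR rats had 77.2, 88.3, 89.4, 94.7 and 96.3 CPM, and the YSS rats 72.5, 80.6, 88.0, 97.9 and 105. The SR rats of cohort XII included the lowest of all 30: XII-L05 and XII-R05, had 53.4 and 50.9 CPM, and were below every other rat. The mean was 74.8 ± 17.1 CPM in SR rats and 94.5 ± 12 in CT rats, a log2 fold change of -0.34 (standard error 0.13, unadjusted p = 0.0142, adjusted p = 0.395), and the groups overlapped. With the cohort as a covariate it was -0.24 (unadjusted p = 0.0609). Against SS rats it was -0.27 (standard error 0.13, unadjusted p = 0.0509) and against YSR rats -0.25 (0.14, unadjusted p = 0.0829), again without SR rats separate from the others. The cohort covariate gave -0.22 against SS rats (unadjusted p = 0.0924) and -0.28 against YSR rats, which then had an unadjusted p of 0.0398 (adjusted p = 0.537 in edgeR). In SS vs. YSS (0.03) and YSR vs. YSS (0.01) the values were near 0.

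**Figure D3:**
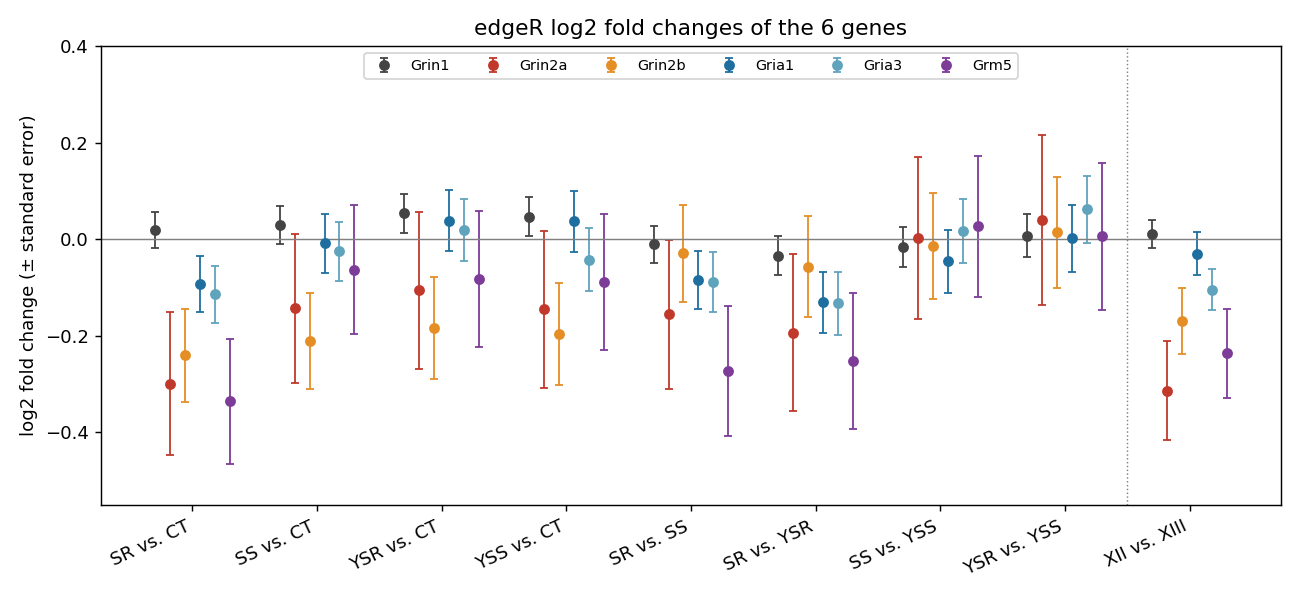
edgeR log2 fold change of each gene in the 8 comparisons and, right of the dotted line, between cohorts with the group held constant; bars are the standard error. *Grin1* lies near 0 throughout, and *Grin2a*, *Grin2b* and *Grm5* are below 0 in SR vs. CT (-0.30, -0.24 and -0.34) and in cohort XII vs. XIII (-0.31, -0.17 and -0.24).

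None of the 48 results (6 genes in 8 comparisons) reached an adjusted p under 0.05, and the smallest adjusted p was 0.395. At an unadjusted p under 0.05 there were 5 in edgeR and 5 in DESeq2, where the adjusted p was 0.348 or higher. The share of all 15797 genes at the unadjusted threshold was 10.5% in SR vs. CT, where 2 of the 6 genes passed it, 5.01% in SS vs. CT, where 1 did, and 8.17% in SR vs. YSR, where 2 did. No member passed it in YSR vs. CT (7.56% of all genes), YSS vs. CT (5.01%), SR vs. SS (7.46%), SS vs. YSS (4.27%) or YSR vs. YSS (3.29%). The adjusted threshold was passed by 0.0253% of all genes in SR vs. YSR, 0.101% when SS rats, 0.12% when YSR rats and 0.0823% when YSS rats were set against CT, and by 0% in the other 4 comparisons. The signs were uneven: all 6 genes were lower in SR than in YSR rats and in SR than in SS rats, and 5 of 6 were lower in SR than in CT rats. The signs were not stable. Of the 6 genes, 5 were higher in SR than in SS rats within cohort XII (all but *Grm5*, between 0.03 and 0.13). *Grin2b* was also higher in SR than in SS rats within cohort XIII (0.03) and with the cohort covariate (0.01). Over the alternatives other than leaving out single rats, 21 of the 48 results had the opposite sign at least once. The median log2 fold change of the 6 genes was -0.13 in SR vs. YSR, -0.09 in SR vs. SS and -0.18 in SR vs. CT, where the median of all genes tested was 0.00 in each. SR takes part in all 3 comparisons, and the genes vary together, as described below, so the signs do not count as separate observations.

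Split by cohort, the SR vs. YSR values of the 6 genes were unequal. Within cohort XII (4 SR and 3 YSR rats), 5 of the 6 genes had an unadjusted p under 0.05, as did 9.25% of all genes. *Grm5* had a log2 fold change of -0.50 (standard error 0.14, unadjusted p = 0.00309 in edgeR) and *Grin2a* one of -0.36 (0.09, unadjusted p = 0.00170), with the smallest adjusted p in edgeR at 0.36. The values were -0.18 for *Gria3*, -0.15 for *Grin2b* and -0.13 for *Gria1*. Within cohort XIII (3 SR and 2 YSR rats), none passed, where 4.54% of all genes did. *Grm5* had a value of 0.07 (0.18), *Grin2a* 0.01 (0.24), *Grin2b* 0.06 (0.18), *Gria3* -0.06 (0.09) and *Gria1* -0.11 (0.11). With the cohort as a covariate over all rats, 3 of the 6 passed (*Gria1*, *Gria3* and *Grm5*), as did 8.64% of all genes. The difference between cohorts in this contrast was not tested.

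Subunit proportions were taken as ratios of counts per kb, for which the library size cancels out. The 4 ratios were: *Grin2a* to *Grin2b*, *Gria1* to *Gria3*, *Grin1* to the sum of both GluN2 genes, and the sum of both AMPA genes to the sum of both GluN2 genes. The last pair share a denominator and are not independent. Group differences were tested on the log2 ratio by exact two-sided permutation of the rats.

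The *Grin2a* to *Grin2b* ratio stood above 1 in all 30 rats, between 1.24 and 2.08. It was 1.54 ± 0.141 in CT, 1.49 ± 0.134 in SR, 1.61 ± 0.304 in SS, 1.64 ± 0.0663 in YSR and 1.60 ± 0.161 in YSS rats (SD). The SS rats had the widest spread, from 1.24 to 2.08, and held both the lowest and the highest of the 30 values. The YSR rats lay close together, at 1.55, 1.59, 1.65, 1.68 and 1.72, and SR rats ranged from 1.30 to 1.65 with a median of 1.52. The log2 difference of SR from YSR rats was -0.14 (standard error 0.06, exact permutation p = 0.0505), the smallest p of the 32 ratio tests, with an adjusted p of 0.776.

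The *Gria1* to *Gria3* ratio, 2.77 ± 0.214 over the 30 rats, differed least. The group means lay between 2.72 (CT) and 2.87 (YSS), and the log2 differences between groups lay between -0.06 and 0.08, with a smallest exact permutation p of 0.299. In SR vs. SS the difference was 0.00 with a standard error of 0.06. The log2 fold changes of *Gria1* and *Gria3* in that comparison were -0.08 and -0.09 (unadjusted p = 0.174 and 0.161 in edgeR).

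*Grin1* was 3.11 ± 0.530 times the sum of *Grin2a* and *Grin2b*, and this was the most variable of the 4 proportions. CT rats ranged from 2.20 to 3.37 (median 3.05), SR rats from 2.72 to 4.35 (median 3.41) and SS rats from 2.27 to 4.03 (median 3.31). YSR rats had 2.85, 3.02, 3.02, 3.11 and 3.32, and YSS rats 2.71, 2.84, 3.04, 3.24 and 4.0. The 3 CT rats with high *Grin2a* and *Grin2b* had 2.20, 2.20 and 2.29, and the other 4 had 3.05 to 3.37, inside the range of the other groups. The log2 difference from CT was 0.28 in SR rats (standard error 0.14, exact permutation p = 0.0711), 0.21 in SS rats (0.16, p = 0.222 by the same exact test), 0.16 in YSR rats (0.11, exact p = 0.242) and 0.20 in YSS rats (0.14, exact p = 0.208). SR and SS rats differed by 0.07 (standard error 0.15, exact p = 0.646).

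The ratio of *Gria1* plus *Gria3* to *Grin2a* plus *Grin2b* followed the same pattern. It was 4.89 ± 0.778 in CT, 5.47 ± 0.724 in SR, 5.47 ± 0.787 in SS, 5.36 ± 0.150 in YSR and 5.47 ± 0.667 in YSS rats. The log2 differences of the 4 other groups from CT were 0.15 to 0.17, with exact permutation p-values from 0.174 to 0.216, and SR and SS rats differed by 0.00 (standard error 0.11). None of the 32 ratio tests passed the threshold, adjusted or not.

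**Figure D4:**
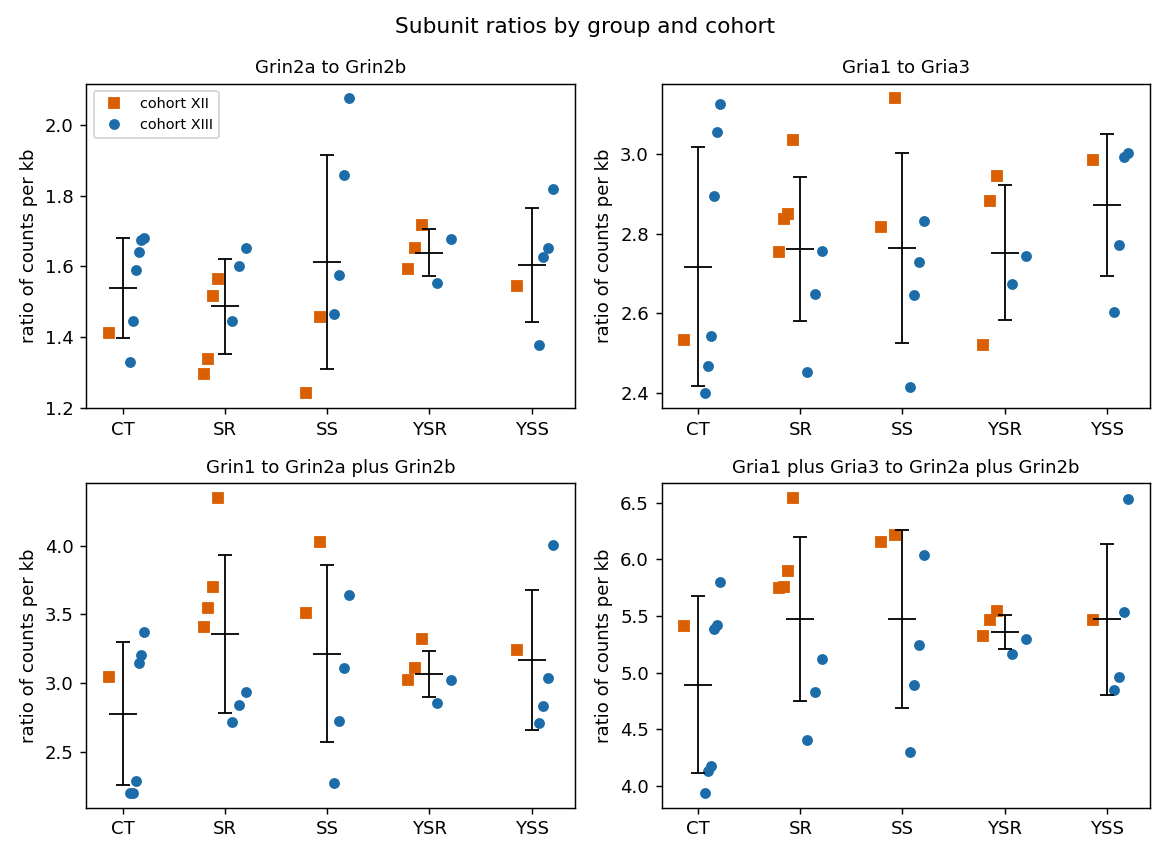
The 4 ratios of counts per kb in every rat, by group, with squares for cohort XII and circles for cohort XIII; lines give mean and SD, and the vertical axes do not start at 0. The groups overlap in each panel. In SR and YSR rats every square lies above every circle in both ratios over the GluN2 genes, by a narrow margin in YSR rats.

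The proportions differed between cohorts. With cohort labels exchanged only within groups (183750 arrangements), the log2 ratio of *Grin1* to the GluN2 genes was higher in cohort XII by 0.26 (exact two-sided permutation p = 0.00601, adjusted over the 4 ratios p = 0.0120), and that of AMPA to GluN2 genes by 0.20 (exact p = 0.00555, adjusted p = 0.0120). The *Grin2a* to *Grin2b* ratio was lower in cohort XII by 0.14 (exact p = 0.0320, adjusted p = 0.0427), and the *Gria1* to *Gria3* ratio had a difference of 0.08 (exact p = 0.0952). Unweighted for group, the mean of *Grin1* over GluN2 was 3.48 ± 0.416 in the 11 rats of cohort XII and 2.90 ± 0.476 in the 19 of cohort XIII, and that of AMPA over GluN2 was 5.77 ± 0.390 and 5.05 ± 0.679.

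The cohort difference was not even over the groups. In *Grin1* over GluN2 (log2) it was 0.40 in SR and 0.38 in SS rats, the METH groups, and 0.18 in CT, 0.10 in YSR and 0.06 in YSS rats. Whether the groups differ in it was not tested, and CT and YSS had only 1 rat each in cohort XII. All 4 SR rats of cohort XII (3.41 to 4.35) were above all 3 of cohort XIII (2.72 to 2.94). The 3 YSR rats of cohort XII were also above the 2 of cohort XIII, by a narrow margin (lowest log2 ratio 1.596 against a highest of 1.595). The SS rats of the cohorts overlapped. In AMPA over GluN2, all rats of cohort XII were above those of cohort XIII in SR, SS and YSR rats. Without CT and YSS, the difference of *Grin2a* to *Grin2b* was -0.16 and no longer passed the threshold (adjusted p = 0.0564), whereas that of *Gria1* to *Gria3* did (0.12, adjusted p = 0.0234). The *Grin2a* to *Grin2b* call was also lost in 12 of the 30 fits that left out 1 rat. These rats were CT XII-R11, SR XIII-L09, XIII-R07, XII-L05 and XII-R05, SS XIII-L05, XIII-L07, XIII-R03, XII-L03 and XII-R03, YSR XIII-R10 and YSS XIII-L06, and the highest adjusted p, 0.122, came without SS XII-L03. The *Gria1* to *Gria3* ratio passed without CT XII-R11 (adjusted p = 0.0163) or YSR XII-R02 (adjusted p = 0.0445). Both ratios over the GluN2 genes passed in all 30.

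Gene by gene, the log2 fold change of cohort XII against XIII was -0.31 for *Grin2a* (standard error 0.10, unadjusted p = 0.00487, adjusted p = 0.121 in edgeR with group and cohort), -0.24 for *Grm5* (0.09, unadjusted p = 0.0158), -0.17 for *Grin2b* (0.07, unadjusted p = 0.0202) and -0.10 for *Gria3* (0.04, unadjusted p = 0.0191). *Gria1* (-0.03) and *Grin1* (0.01) were within 1 standard error of 0. None passed the adjusted threshold, which 0.481% of all genes did, and 16.4% of all genes had an unadjusted p under 0.05. The cohort cannot be told apart from the group in full, since 4 of 7 SR rats but 1 of 7 CT rats belonged to XII.

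The genes varied together over the rats. *Grin2a* and *Grin2b* had a Pearson r of 0.87 and a Spearman rho of 0.89 over the 30 libraries (both permutation p = 1e-05, the smallest that 100000 resamples can give; adjusted over 21 relations p = 2.62e-05 for r). The r was 0.84 without the 2 rats farthest from the median of *Grin2a*, 0.84 in cohort XII, 0.85 in cohort XIII and 0.87 after the group means were removed. *Grin2a* and *Grm5* had an r of 0.85 and a rho of 0.85 (both permutation p = 1e-05), with 0.80 without the 2 farthest rats and 0.84 and 0.83 within the cohorts. *Grin1* went with *Gria1* (r = 0.61, permutation p = 0.00043, rho = 0.63, permutation p = 0.00021, r = 0.55 without the 2 rats farthest in *Grin1*, 0.60 and 0.71 within the cohorts) but its r with the other 4 genes over the 30 libraries was 0.30 or lower, and none of these 4 passed the threshold. Within cohort XIII its r was 0.59 with *Gria3*, 0.41 with *Grm5*, 0.36 with *Grin2a* and 0.20 with *Grin2b*. Within cohort XII the same r values were 0.17, 0.08, 0.26 and 0.14. All values come from the same libraries and share the same normalization.

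*Grin1* is also the short gene among the 6. The median level of 354 other genes that span at least 300000 bp, taken as the log2 deviation from each gene's mean, ran from -0.20 to 0.20 over the 30 libraries. This set was chosen after the values of the 6 genes were seen, so its relations are given as a description, without p-values. No set of shorter genes was taken for comparison. By the spans of the gene models counted here, the r values below did not follow the order of length. *Grin2b*, the longest at 439487 bp, had a lower r than *Grin2a*, at 189693 bp. The order of spans depends on the annotation. In the RefSeq annotation of build GRCr8 the spans are 574875 bp for *Grm5*, 477610 for *Grin2b* and 423546 for *Grin2a*. Those of *Gria1*, *Gria3* and *Grin1* are 319566, 265716 and 26919 bp. Whether the r values depend on the span was not tested. Over the 30 libraries this long-gene level had a Pearson r of 0.94 with *Grm5* (rho = 0.94), 0.88 with *Grin2a* (0.84), 0.74 with *Grin2b* (0.77), 0.74 with *Gria3* (0.67) and 0.49 with *Gria1* (0.43), and one of 0.05 with *Grin1* (0.08). Without the 2 libraries at its extremes the r was 0.90 for *Grm5*, 0.85 for *Grin2a*, 0.74 for *Grin2b*, 0.63 for *Gria3*, 0.38 for *Gria1* and 0.07 for *Grin1*. The mean long-gene level was 0.05 in CT rats, -0.04 in SR rats, 0.01 in SS rats, -0.00 in YSR rats and -0.01 in YSS rats. In cohort XII and cohort XIII it was -0.09 and 0.02 in SR rats, -0.08 and 0.06 in SS rats, 0.00 and 0.06 in CT rats, 0.01 and -0.02 in YSR rats and -0.01 and -0.00 in YSS rats. With the group held constant, the difference of cohort XII from XIII was -0.06. The SR rats with the lowest *Grm5*, XII-R05 and XII-L05, had -0.20 and -0.11. The 3 CT rats with the highest *Grin2b* had 0.09, 0.10 and 0.12, and SS rat XIII-L05, the highest in *Grin2a* and *Grm5*, had the highest long-gene level, 0.20. The part of this shared level in the differences between groups and cohorts was not tested.

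**Figure D5:**
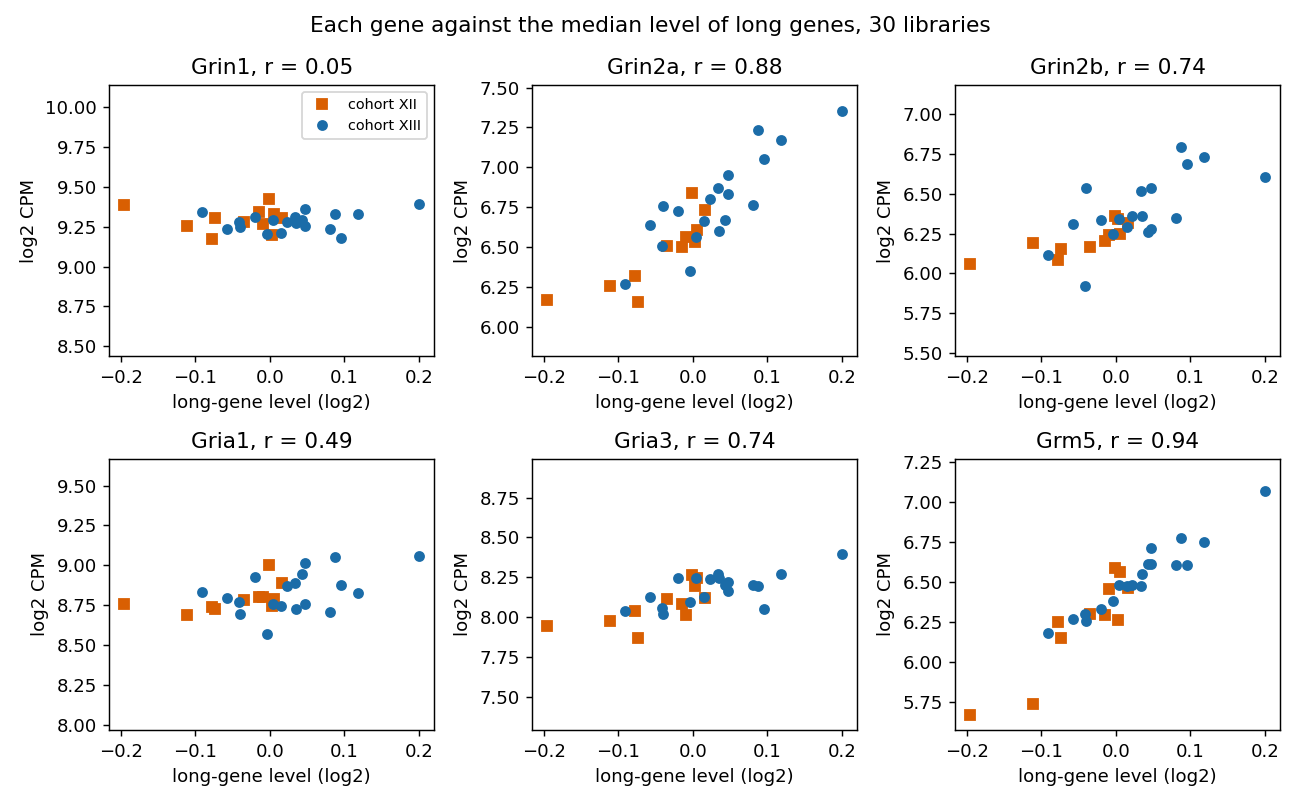
Level of each gene (log2 CPM) against the median level of 354 other genes spanning at least 300000 bp (log2 deviation from their means) in the 30 libraries, with squares for cohort XII and circles for cohort XIII and the same height of axis, 1.7 log2 units, in each panel. *Grm5* and *Grin2a* rise along the long-gene level (r = 0.94 and 0.88) and *Grin1* does not (r = 0.05).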

How the data were processed

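RNA of 30 rats was sequenced from poly(A)-selected, paired-end libraries (NEBNext Ultra II). Per the submitters' processing notes the tools were bcl2fastq 2.17, Trimmomatic 0.36, STAR 2.5.2b and featureCounts of Subread 1.5.2; the build, annotation and strand setting are not given in the sources used here. The authors deposited raw read counts per Ensembl gene with gene positions, 1 table per rat, without normalization.

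Groups and cohorts were read from the sample names. The 6 genes, the ratios and the comparisons were chosen with earlier results of these data known. All 6 genes are named in every comparison, as is the gene most like each, limited to 2 identifiers. A wider glutamate pathway list and marker lists could not be matched (0 identifiers with names) and were not analysed here.

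Counts were fitted in R 4.3.3 with the quasi-likelihood method of edgeR 4.0.16, using TMM factors, its default filter, the group as sole factor over 30 libraries and Benjamini-Hochberg adjustment over 15797 genes. Cohorts were compared with group and cohort in the model. Ratios and CPM of single genes were compared by exact two-sided permutation of rats (Python 3.11.15), with adjustment over 32 ratio tests. Correlations used log2 CPM (prior count 2) and 100000 permutations. Each rat is a separate animal. Yoked rats were paired with single METH rats, and no test used this pairing. The code was tested on simulated data.

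Alternatives were DESeq2 1.42.0, median-ratio factors, a looser filter (1 count or more in all) and a stricter one (10 or more per library), a cohort term, each cohort alone, fits of the 2 groups only, Tukey's test on log2 CPM, and leaving out each library.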

Additional observations from a re-analysis of the deposited data

Results flagged for a closer look

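Of 50 sets of values (6 genes and 4 ratios in 5 groups), 1 held a rat set apart from the rest of its group by Dixon's criterion, where chance alone would give about 2.5. *Grm5* was at 134 CPM in SS rat XIII-L05, while the next SS rat had 93.6 and the lowest 71.1. The gap took 0.644 of the group's range, against a critical value of 0.625 for 6 rats. The long-gene level of this rat, 0.20, was also the highest of the 30, and its part in the *Grm5* value was not tested.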

How the results depend on the processing

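None of the 6 genes passed the adjusted threshold in any of the 8 comparisons under any alternative. The number at an unadjusted p under 0.05 was less steady. Over the 48 results together it was 5, and 7 under the looser filter, not all of which are listed below. Under that filter 3.65 to 8.43% of all genes passed in the single comparisons. In SR vs. CT it was 2 (10.5% of all genes), with 0 under the cohort covariate (6.83% of all genes), in cohort XIII alone (7.19%) and with Tukey's test (1.91%), 4 in a fit of both groups only (9.91%), and 1 to 5 without single rats. In SS vs. CT it was 1 (5.01%), with 0 under those 3 settings (4.64%, 4.28% and 0.804%) and in the fit of both groups (4.3%), and 0 to 2 without single rats. In SR vs. YSR it was 2 (8.17%), with 0 under median-ratio factors (8.03%), the stricter filter (8.29%), in cohort XIII (4.54%) and with Tukey's test (1.85%), 3 under the cohort covariate (8.64%), 5 in cohort XII (9.25%), and 0 to 3 without single rats. In SR vs. SS it was 0 (7.46%), with 1 under the looser filter (6.39%) and 0 to 2 without single rats, and in YSR vs. CT and YSS vs. CT 0, with 0 to 1 without single rats. Of the 48 log2 fold changes, 21 changed sign under at least 1 alternative other than leaving out single rats, among them *Grm5* in SR vs. YSR, in cohort XIII alone (0.074). Among the ratio tests, 1 passed unadjusted in cohort XII alone, where only those of SR vs. SS and SR vs. YSR could be run. Of all 32 ratio tests, 0 to 1 passed unadjusted without single rats. The log2 cohort difference of *Grin2a* to *Grin2b* was -0.16 without CT and YSS, where its call was lost, and -0.16 to -0.10 without single rats; that of *Gria1* to *Gria3* was 0.12 without CT and YSS, where it passed, and 0.056 to 0.11 without single rats. The cause of these changes was not tested.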

Other observations

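Each of the 6 genes had other genes that followed it over the 30 libraries, in unequal number. An r above 0.8 in log2 CPM was reached by 235 other genes for *Grm5*, 182 for *Grin2a*, 24 for *Grin2b*, 23 for *Gria1*, 18 for *Gria3* and 1 for *Grin1*. The gene most like *Grin2a* was ENSRNOG00000002863 on chromosome 13 (r = 0.95, with 0.90 in cohort XII and 0.97 in cohort XIII), and the one most like *Grm5* was ENSRNOG00000006357 on chromosome 5 (r = 0.94, with 0.91 and 0.95). The best match of the other genes reached an r of 0.91 for *Grin2b* and *Gria1*, 0.88 for *Gria3* and 0.82 for *Grin1*. These genes were picked as the most alike of all genes tested, and the values are a description with no test. The share of counts on mitochondrial genes ran from 6.40 to 9.69% over the libraries.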
